A study of Bos taurus with 16 samples.

Results

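Heat shock and chaperone genes, 10 in number, were followed through every library of a bovine study on retinoic acid receptor gamma (RARγ). They are HSPA8, HSPA1A and DNAJB1 of the cytosolic HSP70 system, HSP90AA1, the endoplasmic reticulum (ER) chaperones HSPA5 and HSP90B1, the mitochondrial chaperonin pair HSPD1 and HSPE1, and the small heat shock proteins HSPB1 and CRYAB. Members were taken by gene name, and each name matched 1 gene in each of the 3 deposited tables, so the set holds 10 of 38959 genes in the first blastocyst table, 10 of 37429 in the second and 10 of 28303 in the table of embryonic stem cells. The rule used names and no measured value.

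Messenger RNA was sequenced from 12 single wild-type blastocysts made by fertilization in culture and from 4 libraries of wild-type bovine embryonic stem cells (bESCs). In the first table, 3 embryos cultured with the solvent (DMSO) stand against 3 cultured with 10 µM LY2955303 (LY10), an inhibitor of RARγ given after the first cleavage. In the second, 2 embryos received LY2955303 (LY) from the 2-cell stage (cell2_LY), 2 received it from the 16-cell stage (cell16_LY) and 2 were their DMSO controls (LY_DMSO); the labels give no concentration for these groups. All embryo groups shared a culture medium supplemented with LIF, FGF2 and IGF1, according to the study's methods. The comparisons ask how embryos and bESCs respond when RARγ is inhibited, and whether the stage at which inhibition begins matters. The bESCs were kept in TIFX medium without (bESC_tifx) or with LY (bESC_LY), 2 libraries each, on a layer of growth-arrested mouse fibroblasts that can add RNA to these libraries. The study describes bESC treatment as 10 µM LY for 3 days, set against a DMSO control, and the labels give neither dose nor time. Each blastocyst library came from 1 embryo, and the study's methods call the replicates of each group biological. The sources used here do not say what the bESC libraries of 1 number share, and p-values measure the spread between these libraries.

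Heat shock proteins hold unfolded proteins in a state from which they can fold, or pass them on for degradation. HSP70 proteins work in cycles of ATP use that J-domain proteins such as DNAJB1 start, HSP90 finishes the folding of many kinases and receptors, and the barrel of HSPD1 with its lid HSPE1 folds proteins that enter mitochondria. Some members, such as HSPA1A, DNAJB1 and CRYAB, are known as targets of heat shock factor 1 that are induced by heat and other stress, HSPA5 and HSP90B1 are known as targets of the ER stress response, and HSPA8 is made at high levels in unstressed cells. In mouse embryos, HSP70 genes are known to be among the first genes read at genome activation.

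Depth was 7905768 to 15137567 reads on genes in the first blastocyst table, 11336091 to 17343140 in the second and 29055323 to 31230432 in bESCs. The trophectoderm markers summed to 3029 to 9982 FPKM (fragments scaled to gene length and to library size) in blastocysts and to 102 to 300.2 FPKM in bESCs, and 11 or 12 of 12 were detected in every blastocyst. The bESC libraries held 2216 to 2407 FPKM of epiblast markers, against 198 to 758 FPKM in blastocysts. Libraries were compared by a mean chi-square per gene on reads, which grows with depth. For DMSO replicate 3 it was 67.5 and 49.0 against LY10 replicates 1 and 3, and 115 against LY10 replicate 2. Against DMSO replicates 1 and 2 it was 84.3 and 109. LY10 replicates 1 and 3 had the fewest reads on genes in the first table (7905768 and 8290129). These values therefore do not show that DMSO replicate 3 was nearer to them than to its own group. In the second table, LY_DMSO replicate 1 stood nearer to the cell16_LY embryos (77.2 and 35.7) than to LY_DMSO replicate 2 (82.0), and cell2_LY replicate 2 nearer to cell16_LY replicate 2 (54.7) than to cell2_LY replicate 1 (72.5). In cell2_LY replicate 1, the library size used by the authors was 1.232 times the reads on genes, against 0.949 to 1.075 times in the other libraries.

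The 10 genes are spread over 8 chromosomes, and their positions are those of the first blastocyst table, whose starts and ends equal RefSeq's on ARS-UCD2.0 for 98.8% of the genes both list. HSPA8 lies at 15:33679011-33683436 (minus strand), HSPA1A at 23:27520317-27522790 (minus) and DNAJB1 at 7:11261227-11273084 (plus). HSP90AA1 lies at 21:66939612-66944979 (minus), HSPA5 at 11:96115158-96119452 (minus) and HSP90B1 at 5:67600075-67618814 (plus). HSPD1 at 2:86035475-86045870 (minus) and HSPE1 at 2:86046023-86048063 (plus) lie head to head with 152 bases between them. HSPB1 lies at 25:34345342-34347010 (plus) and CRYAB at 15:22242397-22245623 (minus). The bESC table uses another annotation, in which HSPE1 has 952 bases of exon instead of 479, HSP90AA1 6035 instead of 3041 and CRYAB 1407 instead of 610, so FPKM of these genes cannot be compared between blastocysts and bESCs.

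Together the 10 genes made up 0.759% to 1.12% of all FPKM in the first blastocyst table, 0.89% to 1.34% in the second and 0.501% to 0.614% in bESCs. The bESC share includes HSPE1, HSP90AA1 and CRYAB at their longer exon lengths, so it cannot be compared with the blastocyst shares. HSPA8, HSPE1 and HSP90AA1 held 67.0% to 85.1% of that sum in the 12 blastocysts. HSPA8 ranked between place 18 and place 70 among the genes detected in a blastocyst, HSPE1 between 28 and 72 and HSP90AA1 between 39 and 161. In DMSO embryos the order by mean FPKM was HSPE1, HSPA8, HSP90AA1, HSPB1, HSPA5, HSP90B1, HSPD1, HSPA1A, DNAJB1 and CRYAB. HSPE1, HSPA8, HSP90AA1 and HSPB1 each stood above the next gene in that order without overlap, and so did HSPD1 above HSPA1A. HSPA5, HSP90B1 and HSPD1 overlapped among neighbours, as did HSPA1A, DNAJB1 and CRYAB. In LY10 embryos HSPA8 came first and HSPE1 second, with HSPE1 overlapping HSP90AA1.

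**Figure D1:**
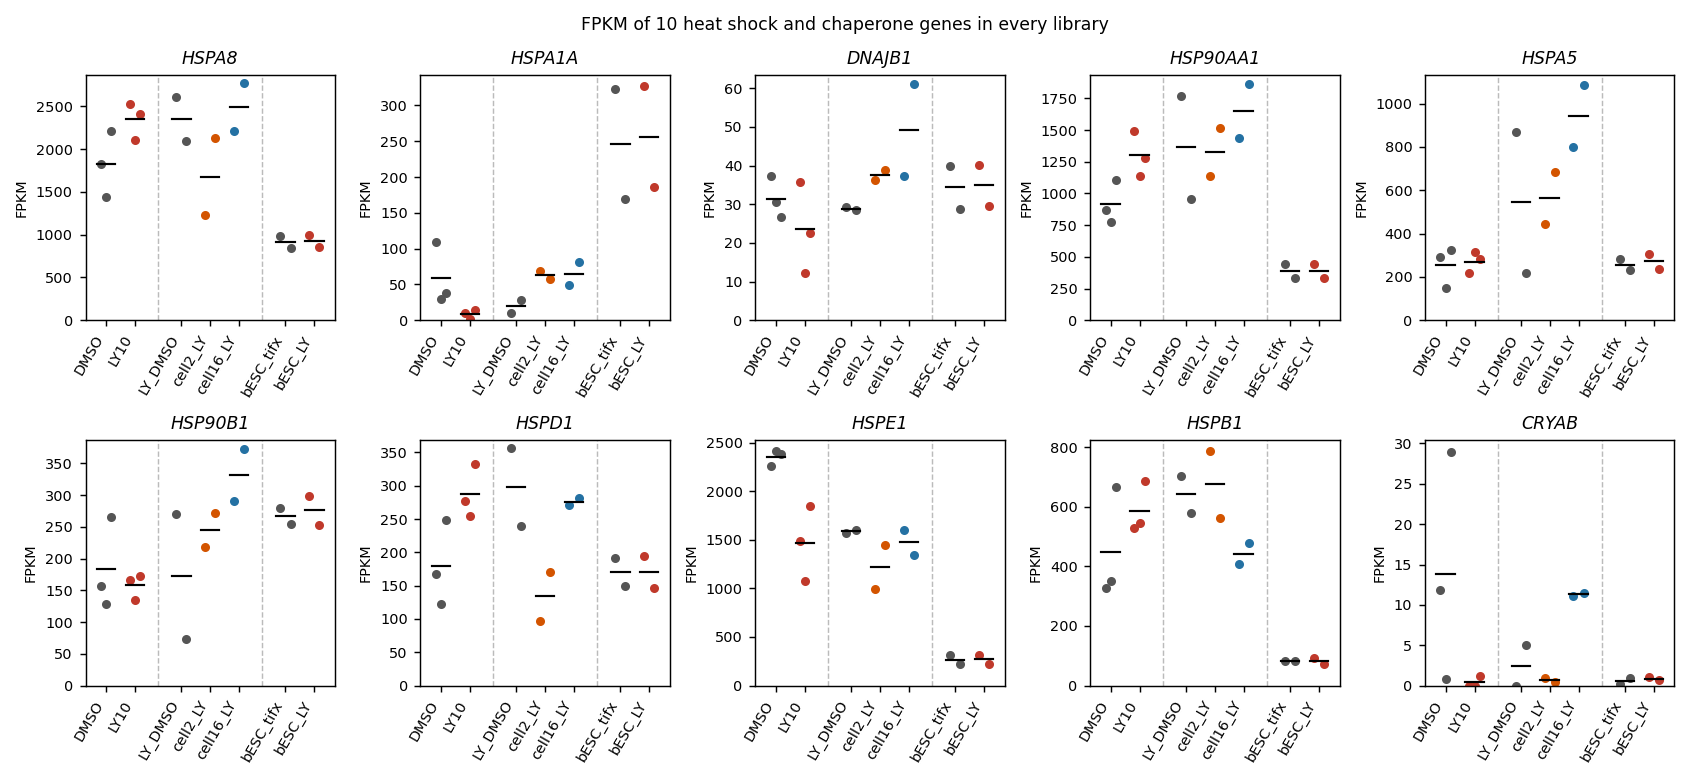
FPKM (vertical axes, linear from 0) of the 10 genes in each of the 16 libraries; points are libraries, black lines are group means, and dashed lines part the 3 tables, which were normalized separately. HSPA1A was lower in the 3 LY10 embryos (2.42 to 14.2) than in the 3 DMSO embryos (29.9 to 109), and higher in cell2_LY (57.5 and 68.4) and cell16_LY (48.6 and 81.0) than in LY_DMSO (10.7 and 29.0).

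HSPA8 encodes the constitutive cytosolic HSP70. It stood at 1820.3, 1440.1 and 2213 FPKM in DMSO embryos and at 2528, 2105 and 2415 FPKM in LY10 embryos, and the ranges overlapped. The log2 fold change, fitted on log2(normalized count + 1) as all those below, was 0.38 ± 0.24 (SE), with an unadjusted p of 0.143 by limma. In the embryos of the second table it was 2613 and 2092 FPKM in LY_DMSO, 1225 and 2124 in cell2_LY and 2211 and 2774 in cell16_LY. The lowest of the 6 embryos was cell2_LY replicate 1, and none of the 3 log2 fold changes passed (-0.54, 0.08 and 0.62 for cell2_LY against LY_DMSO, cell16_LY against LY_DMSO and cell16_LY against cell2_LY).

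HSPA1A, the stress-inducible HSP70, was lower with LY in the first blastocyst experiment and higher with LY in the second. It measured 109, 29.9 and 38.7 FPKM in DMSO embryos and 10.1, 2.42 and 14.2 FPKM in LY10 embryos, so each LY10 embryo was below each DMSO embryo. The log2 fold change was -2.83 ± 0.68 (SE), a level 7.1-fold lower, with an unadjusted p of 0.00271 and a Benjamini-Hochberg adjusted p of 0.0838 by limma, past the study's threshold, which asks for an unadjusted p below 0.05 and a change of more than 1 log2 unit in either direction, and not past an adjusted p of 0.05. The adjusted p ran from 0.0296 to 0.223 over 17 alternative settings and left-out libraries, and the call at the study's threshold held in each. Over these the log2 fold change ran from -3.33 to -2.07. It was -3.02 without DMSO replicate 3, -2.27 without DMSO replicate 1 and -2.07 without LY10 replicate 2. RNA from whole embryos cannot tell fewer cells that express a gene from less RNA per cell.

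In the second experiment HSPA1A measured 10.7 and 29.0 FPKM in LY_DMSO, 68.4 and 57.5 FPKM in cell2_LY and 48.6 and 81.0 FPKM in cell16_LY. Both LY groups lay above both control embryos. The log2 fold change was 1.83 ± 0.46 (SE) for cell2_LY, with an unadjusted p of 0.00361 and an adjusted p of 0.0838 by limma, and 1.83 ± 0.46 for cell16_LY, with an unadjusted p of 0.00358 and an adjusted p of 0.5. Both passed the study's threshold, also in 19 alternatives each, with log2 fold changes from 1.11 to 2.54, and the adjusted p ran from 0.0593 to 0.289 for cell2_LY and from 0.216 to 1.0 for cell16_LY. The 2 LY groups share their controls. Set against each other, cell16_LY and cell2_LY gave a log2 fold change of 0.00, with a 95% interval from -1.05 to 1.05. RefSeq lists HSPA1B as another name of this locus. Whether reads from near-identical HSP70 copies were counted here was not tested.

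Sums of the fibroblast and epiblast markers did not overlap between the groups of the first table, and those of the other marker lists did. The 8 fibroblast markers summed to 24.4 to 91.1 FPKM in DMSO embryos, with 7 or 8 of 8 detected and POSTN at 0 in replicates 1 and 2, and to 6.1 to 11.7 FPKM in LY10 embryos, with 5 to 8 of 8 detected and COL3A1, PDGFRB and POSTN at 0 in replicates 1 and 3. LY10 replicates 1 and 3 had the fewest reads on genes in that table (7905768 and 8290129). LY10 replicate 2, with 8 of 8 detected, had the most (15137567). The apoptosis and p53 response markers summed to 140.5 to 265 FPKM in DMSO and 93.8 to 142 FPKM in LY10 embryos, and the epiblast markers to 198 to 283 and 388 to 758 FPKM. Trophectoderm sums were 3029 to 7115 FPKM in DMSO and 4207 to 9982 FPKM in LY10, and hypoblast sums 161 to 272 and 227 to 348 FPKM. The part of these markers in the HSPA1A and CRYAB results was not tested. Cumulus and granulosa markers stayed between 3.02 and 7.73 FPKM in all blastocyst groups. Across the second table, fibroblast markers summed to 9.72 to 17.6 FPKM and apoptosis and p53 response markers to 97.6 to 175 FPKM.

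DNAJB1, a J-domain partner of HSP70, measured 37.2, 30.6 and 26.6 FPKM in DMSO and 35.8, 12.1 and 22.6 FPKM in LY10 embryos, with overlap and a log2 fold change of -0.54 ± 0.38 (unadjusted p = 0.188 by limma). Across the second table it was 29.2 and 28.5 FPKM in LY_DMSO, 36.3 and 38.9 FPKM in cell2_LY and 37.2 and 61.1 FPKM in cell16_LY. Every LY embryo was above both controls, by log2 fold changes of 0.38 ± 0.29 (unadjusted p = 0.229) and 0.73 ± 0.29 (unadjusted p = 0.0374, adjusted p = 0.62 by limma), both under the size the threshold asks for. The DNAJB1 log2 fold changes had the sign of those of HSPA1A in these 3 comparisons, but DNAJB1 passed the threshold in none.

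HSP90AA1 encodes the inducible cytosolic HSP90. It measured 872, 775 and 1109 FPKM in DMSO embryos and 1495, 1138 and 1283 FPKM in LY10 embryos, which did not overlap. Its log2 fold change was 0.51 ± 0.23 (SE), with an unadjusted p of 0.055 and an adjusted p of 0.229 by limma, short of the threshold. It was 0.66 without DMSO replicate 3 and 0.40 without DMSO replicate 2 (unadjusted p = 0.179 by limma). Its values in the second table were 1769 and 958 FPKM in LY_DMSO, 1139 and 1513 FPKM in cell2_LY and 1437 and 1862 FPKM in cell16_LY, with overlap between every pair of groups and log2 fold changes of 0.01, 0.33 and 0.32. An HSP90AA1-like gene on chromosome 12, LOC781339, stood at 5.39 to 49.4 FPKM in blastocysts.

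HSPA5 (BiP) is the HSP70 of the ER and HSP90B1 (GRP94) its HSP90. HSPA5 measured 292, 149 and 326 FPKM in DMSO embryos and 216, 313 and 282 FPKM in LY10 embryos, with a log2 fold change of 0.14 ± 0.32. HSP90B1 measured 157, 128 and 266 FPKM in DMSO and 167, 134 and 172 FPKM in LY10, with a log2 fold change of -0.16 ± 0.29. The groups overlapped for both, and the unadjusted p-values by limma were 0.662 and 0.599.

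HSPA5 in the second experiment stood at 869.6 and 219 FPKM in LY_DMSO, 444 and 686 FPKM in cell2_LY and 799.9 and 1087 FPKM in cell16_LY. HSP90B1 stood at 270 and 73.9 FPKM in LY_DMSO, 218 and 272 FPKM in cell2_LY and 291 and 372 FPKM in cell16_LY. For both genes LY_DMSO replicate 2 was the lowest of the 6 embryos and the control embryos differed from each other more than the LY embryos did. HSP90B1 was above the controls in cell16_LY by a log2 fold change of 1.22 ± 0.53 (SE), with an unadjusted p of 0.0479 and an adjusted p of 0.649 by limma, past the study's threshold. Without LY_DMSO replicate 2 that value was 0.28 and without LY_DMSO replicate 1 it was 2.15, so its size depends on which control embryo is kept. The HSP90B1 call was lost in 8 of 19 alternatives, among them the fit of only the 2 groups compared. HSPA5 differed by 1.10 ± 0.59 in the same comparison (unadjusted p = 0.0956), and by 0.10 without LY_DMSO replicate 2 and 2.09 without LY_DMSO replicate 1. In cell2_LY against LY_DMSO, HSPA5 gave 0.34 ± 0.59 and HSP90B1 0.79 ± 0.53, and neither passed. Without LY_DMSO replicate 1 both passed the study's threshold (HSPA5 1.33, unadjusted p = 0.0188; HSP90B1 1.72, unadjusted p = 0.00169), and without LY_DMSO replicate 2 both had the opposite sign (-0.66 and -0.15).

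HSPD1 and HSPE1 encode the 2 parts of the mitochondrial chaperonin, HSP60 and HSP10. Their log2 fold changes in LY10 embryos had opposite signs, and neither passed the threshold. HSPD1 measured 167, 123 and 249 FPKM in DMSO and 277, 254 and 332 FPKM in LY10, and HSPE1 measured 2259, 2418 and 2381 FPKM in DMSO and 1487, 1071 and 1849 FPKM in LY10. Every LY10 embryo was above every DMSO embryo for HSPD1 and below every DMSO embryo for HSPE1, although HSPD1 in DMSO replicate 3 was just below the lowest LY10 embryo. The log2 fold changes were 0.73 ± 0.28 (unadjusted p = 0.0283, adjusted p = 0.171 by limma) and -0.71 ± 0.24 (unadjusted p = 0.0159, adjusted p = 0.134), both under the size the threshold asks for. Without DMSO replicate 3 they were 1.00, with an adjusted p of 0.0309 by limma, and -0.71. Without DMSO replicate 2 they were 0.49 (unadjusted p = 0.107 by limma) and -0.69. Over 17 alternatives the adjusted p of HSPD1 ran from 0.0309 to 0.418 and was under 0.05 in 2.

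HSPD1 in the second experiment stood at 356 and 240 FPKM in LY_DMSO, 97.3 and 171 FPKM in cell2_LY and 271 and 281 FPKM in cell16_LY. Both cell2_LY embryos lay below the other 4. HSPD1 was lower in cell2_LY than in LY_DMSO by a log2 fold change of -1.18 ± 0.34 (SE), with an unadjusted p of 0.00814 and an adjusted p of 0.103 by limma, and higher in cell16_LY than in cell2_LY by 1.10 ± 0.34, with an unadjusted p of 0.0118 and an adjusted p of 0.198. Both passed the study's threshold. Against LY_DMSO, cell16_LY differed by -0.08, with a 95% interval from -0.87 to 0.70. With the reads on genes as library size, the cell2_LY differences came to -0.95 and 0.88, and without cell2_LY replicate 1 to -0.77 and 0.69, both under the size the threshold asks for.

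HSPE1 stood at 1571 and 1605 FPKM in LY_DMSO, 998 and 1449.8 FPKM in cell2_LY and 1605 and 1343 FPKM in cell16_LY. The cell2_LY embryos were below both controls, but the log2 fold change of -0.40 ± 0.29 did not pass (unadjusted p = 0.198 by limma), nor did those of cell16_LY against LY_DMSO (-0.11) and against cell2_LY (0.29).

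A pseudogene of HSPD1 on chromosome 22, LOC100299770 (13635301-13638432), took 16% to 23.9% of the reads on both loci in the first blastocyst table, and 11.9% to 22.7% in the second. How the counting split reads between the loci is not stated, so HSPD1 is uncertain to that extent. With the reads of both loci added, the log2 differences of the group means were 0.80 for LY10 against DMSO, -1.31 for cell2_LY against LY_DMSO, -0.08 for cell16_LY against LY_DMSO and 1.23 for cell16_LY against cell2_LY, each in the direction found for HSPD1 alone.

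The FPKM ratio of HSPE1 to HSPD1, taken within each embryo, was 13.6, 19.6 and 9.57 in DMSO embryos and 5.37, 4.21 and 5.57 in LY10 embryos, without overlap. An exact permutation test over the embryos, two-sided on the log2 ratio, gave p = 0.1 for a difference of -1.45, which is the smallest p that 3 against 3 allow. In the second table the ratio was 4.42 and 6.69 in LY_DMSO, 10.3 and 8.48 in cell2_LY and 5.93 and 4.77 in cell16_LY, so the embryos with LY from the 2-cell stage were the highest there, and the LY10 embryos, also treated from cleavage on, were the lowest in their own table. The exact permutation p was 0.333 for cell2_LY against LY_DMSO and for cell16_LY against cell2_LY, the smallest that 2 against 2 allow, and 1.0 for cell16_LY against LY_DMSO. These ratio tests were 5 in all, bESCs included, and with so few embryos none could pass 0.05 before or after adjustment.

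**Figure D2:**
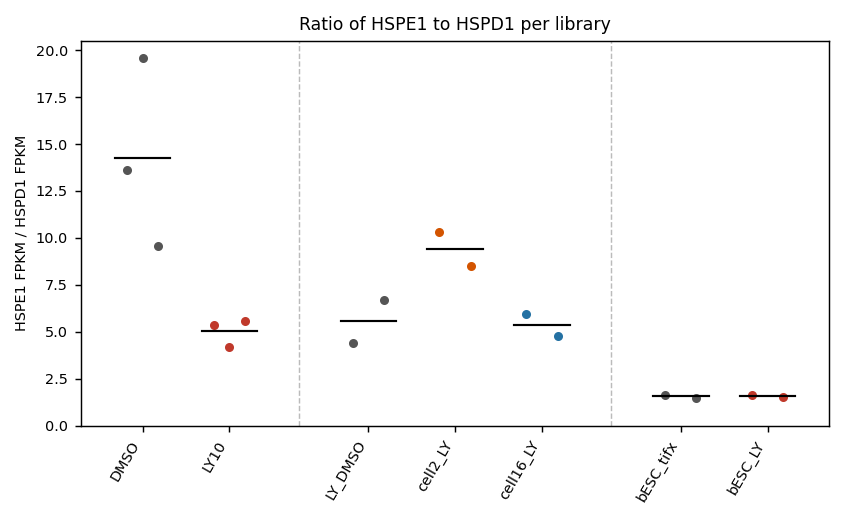
Ratio of HSPE1 FPKM to HSPD1 FPKM (vertical axis, linear from 0) in each library, with group means as black lines and dashed lines between the 3 tables. The DMSO embryos (9.57 to 19.6) lie above the LY10 embryos (4.21 to 5.57) and the cell2_LY embryos (8.48 and 10.3) above the other 4 embryos of their table (4.42 to 6.69); the bESC ratios (1.47 to 1.63) rest on another length of HSPE1.

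HSPB1 (HSP27) and CRYAB (αB-crystallin) are small heat shock proteins that bind unfolding proteins without ATP. HSPB1 measured 327, 351 and 666 FPKM in DMSO embryos and 529, 545 and 687 FPKM in LY10 embryos. DMSO replicate 3 lay among the LY10 values and the other two DMSO embryos below them. HSPB1 gave a log2 fold change of 0.46 ± 0.30 (unadjusted p = 0.159, adjusted p = 0.381 by limma). Without DMSO replicate 3 it was 0.78, with an adjusted p of 0.0462 by limma. Without DMSO replicate 1 it was 0.27 (unadjusted p = 0.434 by limma). The adjusted p ran from 0.0462 to 0.682 over the alternatives. In the second table HSPB1 stood at 704 and 580 FPKM in LY_DMSO, 789 and 562 FPKM in cell2_LY and 407 and 477 FPKM in cell16_LY. The cell16_LY embryos were the lowest, with log2 fold changes of -0.54 ± 0.28 against LY_DMSO (unadjusted p = 0.0923) and -0.59 ± 0.28 against cell2_LY (unadjusted p = 0.0662), neither past the threshold.

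CRYAB was scarce and differed widely between embryos of 1 group. In DMSO it had 99, 5 and 172 reads (11.8, 0.766 and 29.0 FPKM), and in LY10 it had 0, 0 and 6 reads (0, 0 and 1.2 FPKM). A count of 0 allows up to 3 reads, or 4.09 and 2.01 normalized counts in those 2 libraries. LY10 replicate 3 lay above DMSO replicate 2, so the groups overlapped. CRYAB gave a log2 fold change of -4.43 ± 1.46 (SE), with an unadjusted p of 0.0147 and an adjusted p of 0.131 by limma, past the study's threshold. Its normalized counts were 76.9, 4.97 and 188 in DMSO and 0, 0 and 7.77 in LY10. CRYAB therefore met the minimum mean of 10 for testing only through the DMSO embryos. At these counts its size depends on the pseudocount, and it ran from -5.88 to -2.76 over 16 alternatives, 4 of which missed the threshold, among them those without DMSO replicate 1 (unadjusted p = 0.0646) and without DMSO replicate 3 (unadjusted p = 0.0578).

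In the second table CRYAB had 0 and 50 reads in LY_DMSO (0 and 4.97 FPKM), 8 and 4 in cell2_LY (0.939 and 0.424 FPKM) and 111 and 92 in cell16_LY (11.1 and 11.5 FPKM). Both cell16_LY embryos were above all the others. The log2 fold change of cell16_LY was 3.95 ± 1.57 against LY_DMSO (unadjusted p = 0.0345, adjusted p = 0.62 by limma) and 3.94 ± 1.57 against cell2_LY (unadjusted p = 0.035, adjusted p = 0.252), both past the study's threshold. The first was 1.17 without LY_DMSO replicate 1 (unadjusted p = 0.195) and 6.71 without LY_DMSO replicate 2. The second missed the threshold in 5 of 18 alternatives, which were a pseudocount of 0.5 (unadjusted p = 0.0557) and leaving out any 1 of the 4 embryos compared (3.45 to 4.43, unadjusted p from 0.0783 to 0.145). Cell2_LY against LY_DMSO gave 0.01, with a 95% interval from -3.57 to 3.60, and that value depended on the control kept: it was -2.76 without LY_DMSO replicate 1 (unadjusted p = 0.0109) and 2.78 without LY_DMSO replicate 2 (unadjusted p = 0.034), each past the study's threshold.

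**Figure D3:**
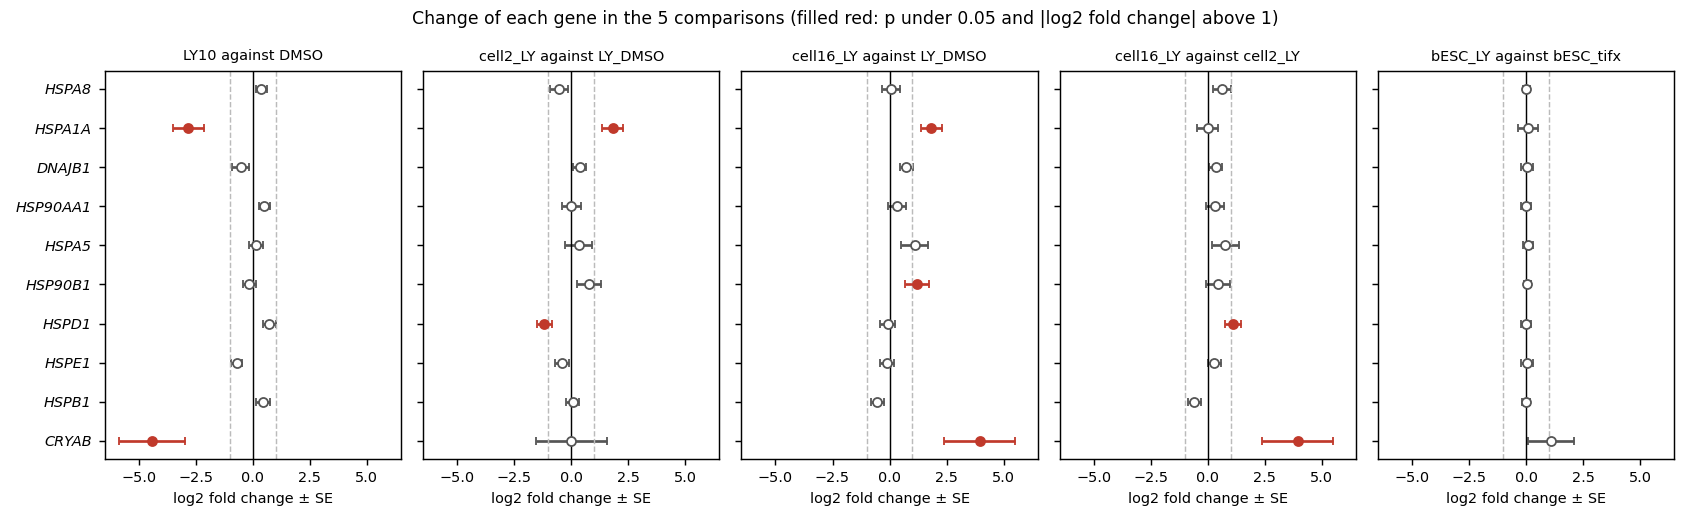
Log2 fold change ± SE (horizontal axes) of the 10 genes in the 5 comparisons, filled red where the study's threshold was passed and open where it was not; dashed lines mark -1 and 1. HSPA1A lies at -2.83 in LY10 against DMSO and at 1.83 in both comparisons with LY_DMSO, and all bESC values but that of CRYAB lie within 0.1 of 0.

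The counts of members can be read against all tested genes. In LY10 against DMSO, 2 of the 10 members (HSPA1A and CRYAB) were lower past the study's threshold and 0 were higher, while 8.51% of 14249 tested genes were lower and 6.20% higher. CRYAB was tested there only because of its counts in DMSO embryos. Values of 4 members, 2 in each direction, did not overlap between the groups, and neither did those of 28.1% of all genes. None of the 10 had an adjusted p under 0.05 by limma (lowest 0.0838), which 0.0140% of all genes had. An unadjusted p under 0.05 was found for 4 members, beside 3267 (22.9%) of all tested genes. With voom weights 2865 of all genes had one, and none passed after adjustment. The median log2 fold change was -0.01 over the members and -0.05 over all tested genes.

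In cell2_LY against LY_DMSO, 1 member was higher (HSPA1A) and 1 lower (HSPD1), against 8.71% and 8.34% of 14529 genes, and 4 did not overlap, against 53.7%. In cell16_LY against LY_DMSO, 3 were higher (HSPA1A, HSP90B1 and CRYAB) and 0 lower, against 3.25% and 1.97% of genes, and 5 did not overlap, against 42.9%. In cell16_LY against cell2_LY, 2 were higher (HSPD1 and CRYAB) and 0 lower, against 5.58% and 5.77%, and 6 did not overlap, against 54.5%. After adjustment by limma, 0 members passed in each of the 3 comparisons, against 0.0138%, 0% and 0% of genes. An unadjusted p under 0.05 was found for 2, 4 and 2 members, beside 24.6%, 7.62% and 17.9% of all tested genes. The 3 comparisons share embryos, so these counts are not independent. The median log2 fold change of the members was 0.03, 0.53 and 0.39, beside 0.00, -0.01 and 0.04 over all tested genes.

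In bESCs the levels followed the library number more than the treatment for all members but CRYAB. HSPA1A measured 323 and 169 FPKM in bESC_tifx 2 and 3 and 327 and 186 FPKM in bESC_LY 2 and 3. HSPA8 measured 982 and 844 FPKM without LY and 993 and 850.1 FPKM with it. HSPE1 measured 312 and 221 FPKM without LY and 316 and 224 FPKM with it, and HSPD1 192 and 149.9 FPKM without and 195 and 147 FPKM with it. HSP90AA1 lay between 333 and 442 FPKM, HSPB1 between 71.0 and 94.2 FPKM and DNAJB1 between 28.7 and 40.2 FPKM. Both libraries numbered 2 were above both libraries numbered 3 for the 9 members other than CRYAB, whatever the treatment. In the bESC annotation HSPD1 and HSPE1 overlap on opposite strands, and reads there cannot be assigned to 1 of them, since strandedness is not given in the sources used here.

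Without the library number in the fit, none of the 10 passed the study's threshold in bESCs, where 0.0375% of 16012 genes were higher and 0.0375% lower, and none had groups without overlap, while 14.2% of genes did. The adjusted p by limma was 1.0 for each member, and 0% of genes passed; 0 members had an unadjusted p under 0.05, with limma's 16 and voom's 19 among all genes. The log2 fold changes of the 9 members other than CRYAB lay between -0.01 and 0.08. Their 95% intervals were widest for HSPA1A (-1.07 to 1.22) and narrowest for HSP90B1 (-0.36 to 0.45), in the fit without the library number. That spread lay mostly between library numbers, at a mean chi-square per gene of 5.82 and 7.46 within a number. With the number as a replicate block, the unadjusted p of HSPA1A was 0.107 in place of 0.864. CRYAB had 6 and 44 reads without LY and 44 and 30 with it, and its log2 fold change of 1.09 had an interval from -1.60 to 3.79. CRYAB passed the study's threshold with the block (unadjusted p = 0.036, adjusted p = 0.563 by limma) and without bESC_tifx replicate 3 (2.39, unadjusted p = 0.0446), and came to -0.20 without bESC_tifx replicate 2. In these cells HSP90B1 (253 to 299 FPKM), HSPA5 (230.2 to 307 FPKM) and HSPA1A (169 to 327 FPKM) stood at overlapping levels, and fibroblast markers summed to 70.8 to 72.6 FPKM, with no test of what mouse feeder cells add.

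Some members varied together over the 12 blastocysts once each table's mean was removed. Pearson's r of log2(normalized count + 1) was 0.88 for HSPA5 and HSP90B1, 0.94 for HSPA8 and HSPD1, 0.78 for HSPA8 and HSP90AA1 and 0.77 for HSPA1A and DNAJB1. It was 0.04 for HSPD1 and HSPE1 and -0.50 for HSPA1A and HSPD1. These values are descriptions over embryos that share tables and treatments, and each pair shares library depth. Among the 9326 genes that averaged 50 or more normalized counts in each blastocyst table, those most like HSPA5 were PDIA6 (r = 0.923) and PDIA4 (0.909), both disulfide isomerases of the ER. Those most like HSPD1 were LOC781533 (0.984) and DLD (0.976), and those most like HSPE1 were OST4 (0.985) and SLC35D1 (0.982). HSPA8 was nearest to RWDD2B (0.968), HSPA1A to LOC100848985 (0.947) and TMEM167B (0.946), HSP90AA1 to BCKDHB (0.93), HSP90B1 to LOC509184 (0.946), HSPB1 to FASTK (0.884) and DNAJB1 to MTHFSD (0.882). CRYAB was below the minimum.

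A further 143 genes of the folding machinery were counted in 9 lists. In LY10 against DMSO, 19 of 134 tested genes (14.2%) were higher past the study's threshold and 10 (7.46%) lower, beside the 6.20% and 8.51% of all genes given above. Of 20 co-chaperones of HSP70 and HSP90, 5 were higher and 1 lower (median 0.44): STIP1, which links HSP70 to HSP90, measured 366 ± 75.9 FPKM (SD) in LY10 and 112 ± 67.3 FPKM in DMSO (log2 fold change 1.86), and BAG3, a stress-induced partner of HSPB8, 3.19 ± 2.38 and 16.6 ± 10.8 FPKM (-2.47). Of 19 mitochondrial chaperones and proteases, 5 were higher and 0 lower (median 0.60), among them the protease LONP1 (log2 fold change 1.66) and TRAP1, the mitochondrial HSP90 (1.29). Of 3 tested small heat shock proteins, 2 were lower, HSPB8 by a log2 fold change of -4.51 at 1.2 ± 1.61 against 10.9 ± 4.32 FPKM. Among 6 heat shock factors, 5 were tested and 1, HSF1, was higher (1.58).

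The ER lists were mixed in LY10 embryos. Of 30 ER chaperones and folding enzymes, 2 were higher (SIL1, a nucleotide exchange factor of HSPA5, by 1.23) and 1 lower (MANF, a secreted factor of the ER stress response, 335 ± 36.2 FPKM in LY10 and 742 ± 187 FPKM in DMSO). Of 20 genes of ER stress signalling and degradation, 4 were higher, among them ATF4 (1.55), a transcription factor of the stress response, and 3 lower, among them DDIT3 (-1.54), which encodes CHOP. The medians were 0.09 and 0.08. The J-domain list had 0 higher and 2 lower of 15, with DNAJB4 at -1.54, the TRiC and prefoldin list 1 higher of 14 (CCT5, 1.04), and the cytosolic HSP70, HSP110 and HSP90 list 1 higher (HSPA2, 1.67) and 1 lower of 8 tested. After adjustment 0 of these genes passed.

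In the second table, 8 of 133 tested list genes (6.02%) were higher and 14 (10.5%) lower in cell2_LY against LY_DMSO, beside 8.71% and 8.34% of all tested genes. The counts were 8 (6.02%) and 3 (2.26%) in cell16_LY against LY_DMSO, beside 3.25% and 1.97%, and 9 (6.77%) and 2 (1.5%) in cell16_LY against cell2_LY, beside 5.58% and 5.77%. After adjustment by limma 0 list genes passed in each of the 3. An unadjusted p under 0.05 was found for 46, 17 and 28 of the 133, beside 24.6%, 7.62% and 17.9% of all tested genes. The chaperonin TRiC with prefoldin, which folds actin and tubulin, had 0 higher and 5 lower of 14 in cell2_LY (median -0.88): TCP1 measured 49.3 ± 27.3 FPKM in cell2_LY, 216 ± 2.64 FPKM in LY_DMSO and 147 ± 12 FPKM in cell16_LY. The mitochondrial list had 0 higher and 3 lower of 19 (median -0.44), with HSPA9, the HSP70 of mitochondria, at 171 ± 38.3 FPKM in cell2_LY and 376 ± 11.7 FPKM in LY_DMSO (log2 fold change -1.15). STIP1 was lower by a log2 fold change of -1.11 and BAG3 higher by 1.59 in cell2_LY, and BAG3 was higher by 1.54 in cell16_LY. HSPA6, another inducible HSP70, was higher by 2.02 in cell2_LY and by 2.04 in cell16_LY, from a control level of 0.73 ± 0.569 FPKM.

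In cell16_LY against LY_DMSO, 4 of 30 ER chaperones were higher and 0 lower (median 0.53), with the disulfide isomerases TXNDC5 (log2 fold change 1.37) and PDIA4, at 45.8 ± 5.58 against 18.3 ± 12 FPKM. XBP1, a transcription factor of the ER stress response, was higher by 1.55 and ATF4 lower by a log2 fold change of -1.13. For cell2_LY against LY_DMSO, 2 of the 30 ER chaperones were higher, TXNDC5 (1.84) and HYOU1 (1.12). There 1 was lower, HSPA13 (-1.32), and the median was 0.34. Of 20 genes of ER stress signalling and degradation, 2 were higher in cell2_LY, SYVN1 (2.12) and XBP1 (1.69), and 0 lower (median 0.27). The 2 control embryos, shared by both comparisons, lay far apart for XBP1 (43.0 ± 39.4 FPKM), as they did for HSPA5 and HSP90B1. In bESCs 0 of 136 tested list genes passed in either direction, beside 0.0375% of all tested genes in each. Of the list genes 0 had an unadjusted p under 0.05, beside 0.0999% of all tested genes.

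**Figure D4:**
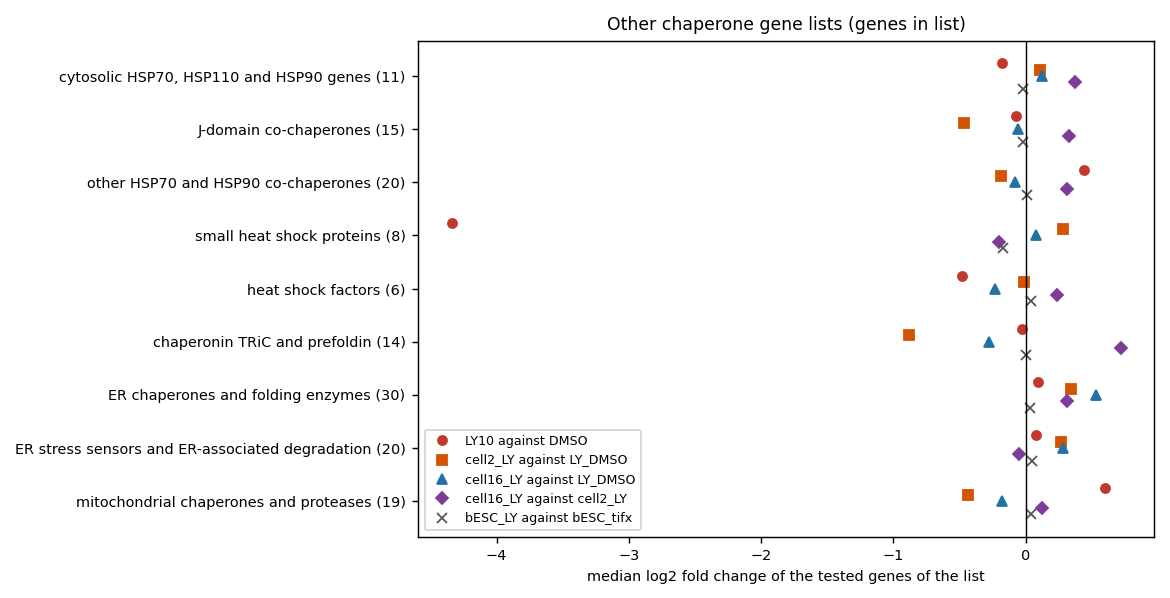
Median log2 fold change (horizontal axis) of the tested genes of 9 further chaperone lists in the 5 comparisons, marked by colour and shape, with the number of genes listed in parentheses. The mitochondrial list lies at 0.60 in LY10 against DMSO and at -0.44 in cell2_LY against LY_DMSO, the small heat shock protein list at -4.34 rests on 3 tested genes, and the bESC medians lie between -0.17 and 0.05.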

How the data were processed

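Poly(A) RNA of single bovine blastocysts and of bESCs was sequenced. The study's methods describe SMART-Seq amplification for the single blastocysts only. The deposited values are FPKM, which the authors computed from gene length and mapped reads; the submitters' processing notes name HISAT2 2.0.5, featureCounts 1.5.0-p3 and StringTie 1.3.3b, and the study's methods name STAR as well. The genome build and strandedness are not given in the sources used here. The authors' fold changes and p-values (DESeq2 1.20.0) were not used.

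FPKM times gene length gave whole reads, within 0.02 reads, for 100% of values. Normalized counts are reads divided by the authors' library size and scaled to the geometric mean size of the table. Genes with a mean of at least 10 were tested on log2(normalized count + 1) with limma 3.58.1 (R 4.3.3; empirical Bayes with a trend). The second table was fitted with its 3 groups together. The threshold was the study's, with Benjamini-Hochberg values over all tested genes beside it. A fold change of a low gene is understated on this scale. The script was tested on simulated reads.

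Members and lists were chosen with earlier results of these data known. Named list genes were those past the threshold without overlap, with a mean of at least 50, up to the 2 with the smallest p in each direction per list and comparison. Same-numbered embryos were not paired (correlations of deviations from -0.23 to 0.17); the 2 bESC pairs gave 0.79. Alternatives covered the pseudocount, filter, library size, normalization, weights, grouping and each left-out library. The 3 tables were normalized separately, so tests were run within tables. Intervals of 95% are limma's, and a floor of 3 reads covers counting error only.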

Additional observations from a re-analysis of the deposited data

Results flagged for a closer look

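HSPA1A was lower with LY10 in the first blastocyst table (log2 fold change -2.83, lower in 3 of 3 embryos than in any DMSO embryo) and higher in cell2_LY in the second (1.83, higher in 2 of 2), although both groups were treated from the cleavage stages on. Every treated embryo of one table lay on one side of its controls and every treated embryo of the other on the opposite side. The tables were normalized separately, and the difference between the 2 effects was not tested. The control levels also differed, at 29.9 to 109 FPKM in DMSO and 10.7 to 29.0 FPKM in LY_DMSO.

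HSPD1 showed the reverse pattern, at 0.73 in LY10 against DMSO and -1.18 in cell2_LY against LY_DMSO, again with every treated embryo on one side of its controls. That difference was not tested either.

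Within the second table, the effects of LY from the 16-cell and from the 2-cell stage differed for HSPD1 (1.10, unadjusted p = 0.0118 and adjusted p = 0.198 by limma) and for CRYAB (3.94, unadjusted p = 0.035 and adjusted p = 0.252 by limma), tested as cell16_LY against cell2_LY. Both values passed the study's threshold, and neither passed after adjustment. The CRYAB call was lost in 5 of 18 alternatives, among them leaving out any 1 of the 4 embryos, and the HSPD1 call in 4 of 19.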

How the results depend on the processing

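HSPA1A kept its direction and its call in LY10 against DMSO and in both comparisons with LY_DMSO under every alternative run. The number of members past the study's threshold depended on the setting in every comparison. In LY10 against DMSO, where 2 passed, it was 1 (HSPA1A) with a minimum mean of 50, with quantile normalization and with voom, and 1 to 2 with a library left out. In cell2_LY against LY_DMSO, where 2 passed, it was 1 (HSPA1A) with quantile normalization and with reads on genes as library size, and 1 to 4 with a library left out; without LY_DMSO replicate 1 the 4 were CRYAB, HSP90B1, HSPA1A and HSPA5. In cell16_LY against LY_DMSO, where 3 passed, it was 1 (HSPA1A) when only the 2 groups were fitted, and 1 to 3 with a library left out. In cell16_LY against cell2_LY, where 2 passed, it was 1 with a pseudocount of 0.5 or a minimum mean of 50 (HSPD1) and with quantile normalization or reads as library size (CRYAB), and 0 to 2 with a library left out. In bESCs, where 0 passed, it was 0 to 1 with a library left out. Where a group was left with a lone library, it was assumed to vary like the others. CRYAB had no value with the minimum mean of 50. Except for the settings whose construction left fewer genes or libraries, the cause was not tested.

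With the replicate block, the counts were 2, 2, 3 and 2 in the blastocyst comparisons and 1 in bESCs, where CRYAB passed; the block changed no other count. Same-numbered embryos share only a number in the blastocyst tables. In bESCs each library was nearest to the one of its own number, and what the number marks was not tested. With the numbers of cell16_LY crossed, a setting chosen after seeing the data, the counts were 2, 3 and 2.

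Many differences changed sign, CRYAB in cell2_LY with a call on both sides. Without a library, log2 fold changes in LY10 against DMSO ran from -0.38 to 0.14 for HSP90B1 and from -0.21 to 0.36 for HSPA5. In cell2_LY against LY_DMSO they ran from -2.76 to 2.78 for CRYAB, -0.43 to 0.45 for HSP90AA1, -0.15 to 1.72 for HSP90B1, -0.66 to 1.33 for HSPA5 and -0.18 to 0.30 for HSPB1. In cell16_LY against LY_DMSO they ran from -0.11 to 0.77 for HSP90AA1, -0.08 to 0.25 for HSPA8, -0.37 to 0.20 for HSPD1 and -0.24 to 0.01 for HSPE1. In cell16_LY against cell2_LY they ran from -0.01 to 0.70 for DNAJB1 and -0.37 to 0.37 for HSPA1A. In bESCs they ran from -0.20 to 2.39 for CRYAB, -0.21 to 0.27 for DNAJB1, -0.21 to 0.20 for HSP90AA1, -0.07 to 0.17 for HSP90B1, -0.39 to 0.55 for HSPA1A, -0.11 to 0.27 for HSPA5, -0.10 to 0.13 for HSPA8, -0.22 to 0.19 for HSPB1, -0.20 to 0.20 for HSPD1 and -0.23 to 0.27 for HSPE1.

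Other settings turned CRYAB in cell2_LY against LY_DMSO to -0.56 (log2(FPKM + 1)) and -0.53 (pseudocount of 5), and HSPA8 in cell16_LY against LY_DMSO to -0.18 (quantile). In cell16_LY against cell2_LY they turned HSPA1A to -0.27 (quantile) and -0.21 (reads as library size) and HSP90AA1 to 0.00 (quantile). In bESCs HSP90AA1 came to 0.05 (quantile) and 0.00 (reads), HSPA8 to -0.01 (quantile) and HSPD1 to 0.00 (median of ratios) and 0.01 (reads). Reads as library size moved the median of all genes to 0.24 in cell2_LY against LY_DMSO and to -0.18 in cell16_LY against cell2_LY. The printed intervals limit what 2 or 3 libraries a group can show.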
